A study of Rattus norvegicus with 8 samples.

Results

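Homeobox genes encode transcription factors that bind DNA through a homeodomain and set cell identity during development. The set described here holds the 50 genes whose symbol in the annotation of the Affymetrix rat genome array starts with one of 12 name stems (as in Hoxa5, Hoxb2, Hoxc4, Hoxd8, Pbx2, Lhx9, Six5, Msx1, Emx2, Dlx1, Irx3 and Tgif2), each followed by a number. Membership was set by these names, out of 14217 genes with a probe set that carries a single symbol. The names were chosen with earlier results of these data known. Their 60 probe sets were reduced to 1 per gene, the one with the highest mean over the arrays of single animals. Of the 50, 49 were matched by gene identifier to a current rat gene symbol, and 1 of the 24 members with a Hox stem, Hoxa11-as, is an antisense transcript and no transcription factor.

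Ovarian cortex RNA of female Sprague-Dawley rats was read on 8 arrays. The DHT group carried a silicone capsule that released 5α-dihydrotestosterone, an androgen that cannot be converted to estrogen, for 12 weeks to model polycystic ovarian syndrome. The CTL group carried an empty capsule, and all animals were killed at 15 weeks of age. Each group had 3 arrays of single animals, replicates 1 to 3, and 1 array of the pooled RNA of the same 3 animals. The tissue holds several cell types, so fewer cells of a type and less RNA per cell cannot be told apart, and corpora lutea were few or absent in the DHT ovaries by the study's methods.

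Hox genes lie in clusters on different chromosomes, are used in the order of their position along the body axis, and continue to be expressed in parts of the adult reproductive tract. Pbx proteins and their relatives Meis and Pknox bind DNA together with Hox proteins. Tgif proteins repress transcription in TGF-beta and retinoid signalling. Emx2 and Lhx9 are needed for the embryonic gonad to form, Sine oculis factors such as Six4 act with Eya and Dach proteins in organ formation, and Irx3 and Irx5 act in granulosa cells of the follicle.

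The array values are log2 expression after GCRMA, a method that removes background with the help of probe sequence. A gene was called when DHT and CTL means differed by 2-fold or more with p at most 0.01 and a false discovery rate at most 10%, by limma over all 31042 probe sets that are not controls. A value was near background when it did not exceed the level that 95% of 41 sensory receptor probe sets (smell, pheromone and taste) stayed under on that array. That level was 2.65 to 2.69 on the DHT arrays, 2.71 and 2.62 on CTL replicates 1 and 2, and 3.07 on CTL replicate 3. CTL replicate 3 stood apart from the other CTL animals, with Pearson r of 0.866 and 0.879 with them across probe sets, against 0.983 between CTL replicates 1 and 2. For Gapdh, the 3' control probe set exceeded the 5' one on the log2 scale, a gap that grows as RNA is short at the 5' end, by 0.39 and 0.62 on CTL replicates 1 and 2, 3.49 on CTL replicate 3 and 2.99 to 3.98 on the DHT arrays. Each result is therefore given with and without CTL replicate 3 where that matters. The number of arrays limits the precision, and with 3 animals a group the smallest exact permutation p is 0.1.

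Hoxd8 and Tgif2 were higher in the DHT than in the CTL ovaries. These were the 2 members called, both higher, and no member was called lower. They make up 4.0% of the 50 members, where 0.907% of all genes were called higher and 0.429% called lower. In 6 members, Hoxd8, Tgif2, Hoxd9, Six5, Hoxd4 and Emx2, every DHT animal lay above every CTL animal. That is 12.0% of the members, close to the 14.3% of all genes that did the same, so the count by itself says nothing particular to these genes. The same 6 had an unadjusted p of 0.05 or less, 12.0% of members against 10.7% of all genes in that direction. In no member did every DHT animal lie below every CTL animal, where 6.81% of all genes did. The median log2 fold change of the 50 members was -0.033, beside -0.012 over all genes and -0.028 over all probe sets.

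The sequences just upstream of the 4 members with the smallest p are shown because each of these genes was higher in the DHT ovaries and their start regions are rich in the dinucleotide CG, the site of DNA methylation. They are the 250 bases before the annotated start on the rat genome GRCr8, from RefSeq, with every CG in capitals. The window of Hoxd8 is chr3:80014973-80015222, that of Tgif2 is chr3:165793239-165793488, that of Hoxd9 is chr3:80007756-80008005 and that of Six5 is chr1:87869156-87869405, all on the plus strand.
Hoxd8: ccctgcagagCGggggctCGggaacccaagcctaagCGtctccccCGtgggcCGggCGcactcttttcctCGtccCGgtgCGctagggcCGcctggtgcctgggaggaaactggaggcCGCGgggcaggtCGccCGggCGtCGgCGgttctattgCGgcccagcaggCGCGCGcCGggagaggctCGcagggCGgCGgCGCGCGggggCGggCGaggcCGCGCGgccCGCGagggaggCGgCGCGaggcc
Tgif2: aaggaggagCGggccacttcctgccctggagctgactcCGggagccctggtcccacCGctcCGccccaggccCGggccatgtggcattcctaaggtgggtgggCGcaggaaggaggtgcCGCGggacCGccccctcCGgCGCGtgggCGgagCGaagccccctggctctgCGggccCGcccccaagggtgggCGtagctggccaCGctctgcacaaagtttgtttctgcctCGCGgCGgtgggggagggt
Hoxd9: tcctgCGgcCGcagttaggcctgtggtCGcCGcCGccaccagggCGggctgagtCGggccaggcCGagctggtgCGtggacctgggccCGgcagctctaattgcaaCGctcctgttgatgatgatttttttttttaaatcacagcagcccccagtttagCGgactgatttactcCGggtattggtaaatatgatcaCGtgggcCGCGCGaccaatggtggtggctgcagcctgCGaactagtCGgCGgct
Six5: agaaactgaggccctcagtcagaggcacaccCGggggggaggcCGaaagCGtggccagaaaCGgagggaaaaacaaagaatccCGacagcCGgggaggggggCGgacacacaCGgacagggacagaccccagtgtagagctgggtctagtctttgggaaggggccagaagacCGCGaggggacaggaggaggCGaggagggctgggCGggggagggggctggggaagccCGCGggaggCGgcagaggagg
The Hoxd8 window held 38 CG and 78.8% G or C, and 98.5% of the windows of all genes held as many or fewer. Tgif2 had 21 CG, Hoxd9 had 20 and Six5 had 15. A window was at hand for 31 of the 50 members, with a median of 19.0 CG and 64.0% G or C, beside a median of 6.0 CG and 52.0% over 27457 genes. Windows rich in CG were not limited to members with signal: the median was 15.0 CG in the 11 members above background on all 6 arrays and 20.5 in the 16 near background on all of them.

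Short motifs were searched on both strands of the same windows. TAAT, the core that many homeodomains bind, was in 8 of the 31 member windows (25.8%) and in 56.3% of all windows. The longer homeodomain motif TAATTA, which contains that core on either strand, was in 1 member window (3.2%) against 4.9% of all. TGTCA, the core bound by Tgif and Meis proteins, was in 6 (19.4%) against 40.3%, and AGAACA, part of the element that binds the androgen receptor, in 2 (6.5%) against 17.1%. Of the 4 windows printed above, Hoxd9 alone held any of these motifs, the homeodomain core at 1 place. These are matches of letters in windows that differ in base composition, and they say nothing of binding.

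Hoxd8 is a gene of the middle of the HoxD cluster. Its log2 value was 7.87, 7.83 and 8.08 in DHT replicates 1 to 3 and 6.43, 6.18 and 6.46 in CTL replicates 1 to 3. The groups lay well apart, and the animals within each group lay close together, CTL replicate 3 among them. The difference was 1.57 on the log2 scale (standard error, SE, 0.11, adjusted p = 0.0402 by limma), a 2.97-fold higher level. Against CTL replicate 3 alone the difference was 1.47, and against CTL replicates 1 and 2 it was 1.62. The pooled RNA gave 7.92 for DHT and 6.48 for CTL, and 7.66% of all genes differed by 2-fold or more between these 2 arrays. The call was lost when any single DHT animal was left out, with a log2 fold change of 1.49 to 1.62 and an adjusted p of 0.155 to 0.265 by limma, settings under which 0 of all 31042 probe sets were called and 2529 to 2623 had an unadjusted p of 0.05 or less. It was also lost after quantile normalization (1.42, adjusted p = 0.153) and with a mean-variance trend (adjusted p = 0.114).

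**Figure D1:**
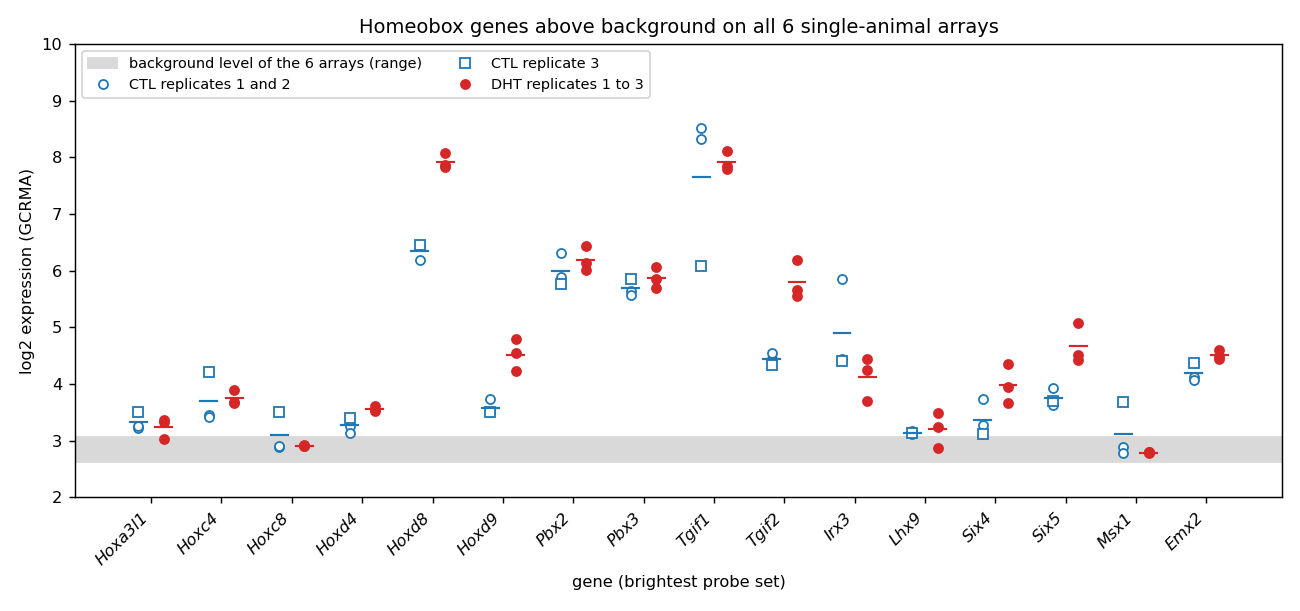
Log2 expression of the 16 homeobox genes above background on all 6 single-animal arrays, with CTL replicates 1 and 2 as open circles, CTL replicate 3 as open squares, DHT replicates as filled circles and the group means as short lines; the grey band spans the background levels of 2.62 to 3.07. The DHT and CTL animals separate for Hoxd8, Tgif2, Hoxd9, Six5, Hoxd4 and Emx2 and overlap in the other 10, and levels of different genes come from different probes and are not comparable.

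The other genes of the HoxD cluster were read next to it. Hoxd9, the neighbour of Hoxd8 toward the posterior end, had 4.22, 4.55 and 4.79 in the DHT animals and 3.73, 3.51 and 3.51 in the CTL animals. The groups did not overlap, and the values were low in both. Its log2 fold change of 0.94 (SE 0.17, adjusted p = 0.106 by limma) missed both the 2-fold limit and the false discovery rate. The difference was 0.90 against CTL replicates 1 and 2, 1.01 against CTL replicate 3 and 0.95 between the arrays of pooled RNA. Hoxd4, on the other side of Hoxd8, had 3.53, 3.54 and 3.61 in DHT and 3.26, 3.14 and 3.41 in CTL animals, which differed by 0.29 on the log2 scale (adjusted p = 0.282 by limma). The groups did not overlap here either, but the gap between DHT replicate 1 and CTL replicate 3 was narrow. Without CTL replicate 3 the Hoxd4 difference was 0.36 (adjusted p = 0.0428 by limma), under 2-fold, in a fit that called 1622 of all probe sets. It was 0.15 against CTL replicate 3 alone and 0.52 between the arrays of pooled RNA.

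Farther along the cluster the signal was at background. Hoxd10 and Hoxd11, toward the posterior end, and Hoxd1, at the anterior end, were near background on all 6 arrays, and Hoxd3 was near background on 5, rising above it only in DHT replicate 3 (3.07). Hoxd12, Hoxd13 and the adjoining Evx2 were not analysed here. The genes that flank the cluster did not share the pattern: Lnpk, a protein of the endoplasmic reticulum, had a log2 fold change of -0.30 (adjusted p = 0.381 by limma), and Mtx2, an import factor of mitochondria, had 0.18 (adjusted p = 0.896). Neither was called.

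**Figure D2:**
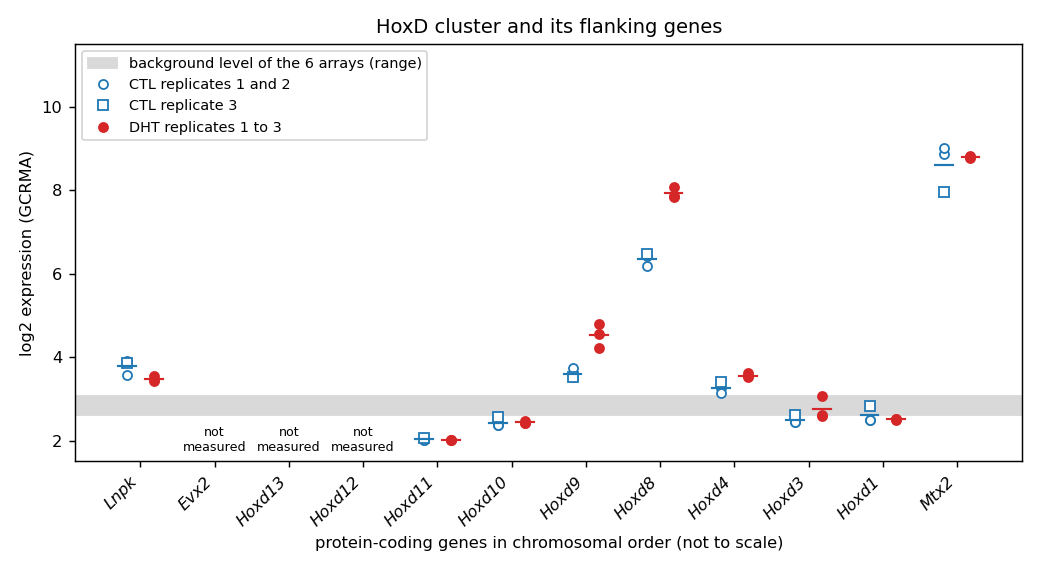
Log2 expression on the single-animal arrays of the protein-coding genes of the HoxD cluster and of Lnpk, Evx2 and Mtx2 beside it, in the order in which they lie on the chromosome (not to scale), with the same symbols for CTL and DHT animals as in the plot of members by array. Hoxd9, Hoxd8 and Hoxd4, which lie side by side, were above background in all 6 animals and higher in each DHT animal than in each CTL animal, while Hoxd11, Hoxd10 and Hoxd1 stayed at background.

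In the other Hox clusters little signal was found. Of the 24 members with a Hox stem, 10 were near background on all 6 arrays. Among them were Hoxa9, Hoxa10 and Hoxa11, which are known from the oviduct and uterus. Hoxa5, Hoxb3, Hoxb13 and the antisense transcript Hoxa11-as were also among them. Only 6 were above background on all 6 arrays: Hoxd4, Hoxd8, Hoxd9, Hoxc4, Hoxc8 and Hoxa3l1, a coding gene whose annotated span takes in Hoxa4. Hoxa3l1 lies on the plus strand, opposite to Hoxa7, Hoxa9 and Hoxa10, and whether it encodes a homeodomain was not examined. Hoxc4 had 3.69, 3.66 and 3.89 in DHT and 3.46, 3.42 and 4.22 in CTL animals. The highest value was that of CTL replicate 3, so the groups overlapped, with a log2 fold change of 0.048 (adjusted p = 0.936 by limma). Its other probe set was near background on all 6 arrays. Hoxa3l1 had 3.34, 3.02 and 3.36 in DHT and 3.22, 3.26 and 3.51 in CTL animals, and Hoxb2 had 2.87, 2.81 and 3.05 against 2.93, 2.86 and 2.87. In both genes the groups overlapped, and neither was called. Hoxc8 lay at 2.90 to 2.93 in DHT animals and 2.89 and 2.92 in CTL replicates 1 and 2, with 3.51 in CTL replicate 3 alone. Hoxc5 lay at 2.50 to 2.93 on 5 arrays and at 3.60 in DHT replicate 3, so its group mean rests on 1 animal.

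The paralogs Tgif1 and Tgif2, which repress transcription with Smad proteins and corepressors, did not behave alike across the animals. Tgif2 had 5.56, 5.65 and 6.19 in the DHT animals and 4.44, 4.55 and 4.34 in the CTL animals. All DHT values were above all CTL values, with the highest in DHT replicate 3. Its log2 fold change was 1.36 (SE 0.19, adjusted p = 0.0694 by limma), a 2.56-fold higher level, and the difference was 1.31 against CTL replicates 1 and 2 and 1.46 against CTL replicate 3. The call was lost without any DHT animal (adjusted p of 0.161 to 0.265) and without CTL replicate 1 (0.155) or CTL replicate 2 (0.153), where the log2 fold change was 1.16 to 1.48. It was lost too after quantile normalization (1.25, adjusted p = 0.109) and with a mean-variance trend (adjusted p = 0.143).

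Tgif1 had 7.80, 8.10 and 7.85 in DHT and 8.33, 8.52 and 6.09 in CTL animals. CTL replicates 1 and 2 lay above every DHT animal and CTL replicate 3 lay far below, so the direction depended on the CTL animal: the DHT mean was 0.51 lower than that of CTL replicates 1 and 2 and 1.83 higher than CTL replicate 3 on the log2 scale. The log2 fold change was 0.27 with all animals (SE 0.69, adjusted p = 0.9 by limma) and -0.51 without CTL replicate 3 (adjusted p = 0.107). With that Gapdh gap of each array as a covariate it was 1.77, close to the difference from CTL replicate 3 alone. The gap was 0.39 and 0.62 on CTL replicates 1 and 2, 3.49 on CTL replicate 3 and 2.99 to 3.98 on the DHT arrays. The fit with the covariate therefore compares the DHT animals mainly with CTL replicate 3, which is 1 animal. Whether RNA shortness has a part in this was not tested. The arrays of pooled RNA differed by -0.15.

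**Figure D3:**
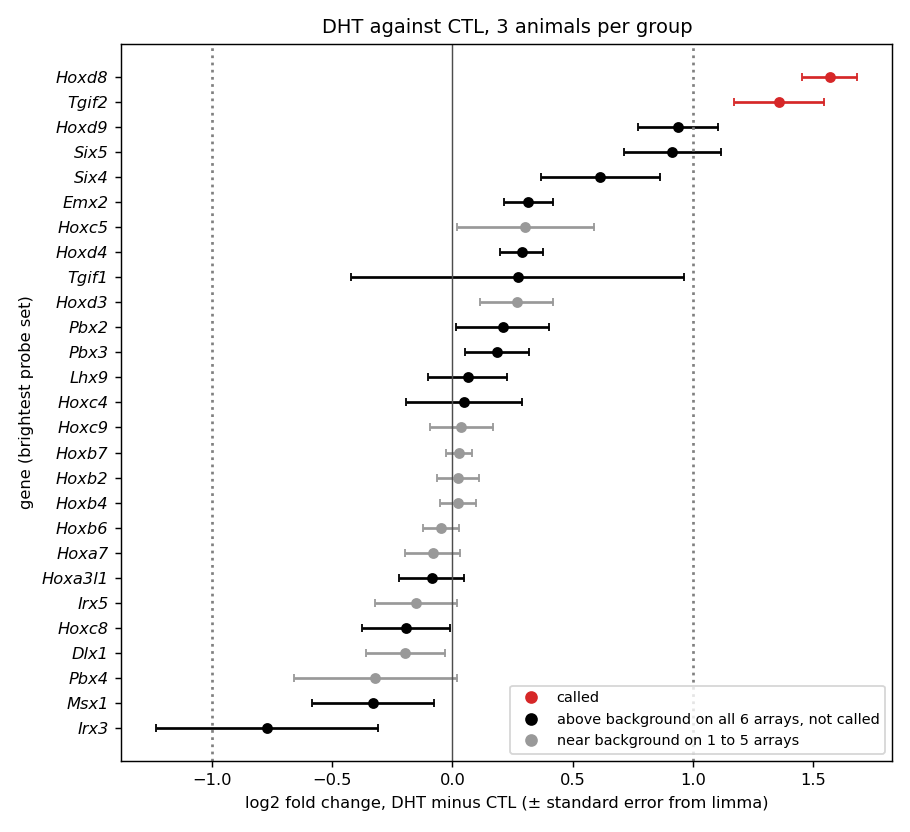
Log2 fold change, DHT minus CTL, with its standard error from limma, for the 27 homeobox genes that were not near background on all 6 arrays; dotted lines mark 2-fold. Hoxd8 and Tgif2 are called, Hoxd9 (0.94) and Six5 (0.91) stop short of the 2-fold line, and Tgif1 has the widest error (0.69); grey genes were near background on 1 to 5 arrays, so their values are limited by the background.

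In the sine oculis family, Six5 and Six4 were above background on all 6 arrays and Six3 and Six6, known from eye and forebrain, were near background on all of them. Six5, a factor of muscle and lens, had 4.51, 4.43 and 5.07 in DHT and 3.62, 3.94 and 3.71 in CTL animals. The groups did not overlap, but the log2 fold change of 0.91 (SE 0.20, adjusted p = 0.153 by limma) was not called. It was 0.58 between the arrays of pooled RNA. Six4, which was picked after its values had been seen, had 3.67, 3.94 and 4.35 in DHT and 3.74, 3.27 and 3.11 in CTL animals. CTL replicate 1 reached into the DHT range, and the log2 fold change of 0.61 had an adjusted p of 0.429 by limma.

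Emx2, a factor of the urogenital ridge, had 4.45, 4.60 and 4.48 in DHT and 4.13, 4.08 and 4.37 in CTL animals, a log2 fold change of 0.32 (SE 0.10, adjusted p = 0.32 by limma). The groups did not overlap, though CTL replicate 3 lay within 0.14 of the DHT mean. Without CTL replicate 3 the difference of Emx2 was 0.41 (adjusted p = 0.045 by limma), under 2-fold, in a fit that called 1622 of all probe sets. Its relative Emx1 was near background on all 6 arrays. Lhx9, the LIM factor of the gonad, had 2.88, 3.23 and 3.49 in DHT animals and 3.17, 3.12 and 3.13 in CTL animals. The groups overlapped, and the other 4 Lhx genes, Lhx1, Lhx2, Lhx4 and Lhx5, were near background on all 6 arrays.

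The Hox partners Pbx2 and Pbx3 were read clearly in both groups with overlapping values. Pbx2 had 6.01, 6.13 and 6.44 in DHT and 5.88, 6.32 and 5.76 in CTL animals, a log2 fold change of 0.21 (SE 0.19, adjusted p = 0.896 by limma). Pbx3, named after its values had been seen, had 0.19 (SE 0.13, adjusted p = 0.773). A difference of 2-fold lay several standard errors away from either value. Pbx4 was near background on every array but CTL replicate 3, where it read 3.55.

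Irx3 was the member whose mean was lower in DHT by the most, and that rested on 1 CTL animal. It had 4.24, 4.44 and 3.70 in DHT and 5.84, 4.43 and 4.41 in CTL animals. CTL replicate 1 stood above all others, CTL replicates 2 and 3 lay within the DHT range, and the log2 fold change of -0.77 (SE 0.46, adjusted p = 0.665 by limma) was -0.29 without CTL replicate 1. The next probe set of Irx3 had its highest value on the same array (3.82, against 2.90 to 3.11 on the other 5), and a further probe set was near background on all 6. Irx5, which lies in the same cluster of Irx genes, was also highest in CTL replicate 1, with 3.34 against 2.76 to 2.85 on the other 5 arrays. Irx1, Irx2 and Irx4 were near background on all 6 arrays.

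Msx1, a factor downstream of BMP signals, had 2.78, 2.80 and 2.79 in DHT and 2.89, 2.78 and 3.68 in CTL animals, and Dlx1 had 2.60, 2.54 and 2.60 in DHT and 2.55, 2.65 and 3.12 in CTL animals. In both genes CTL replicate 3 was the only high array and the other CTL values were close to those of the DHT animals. Dlx3, Dlx5 and Msx2 were near background on all 6 arrays.

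In all, 23 of the 50 members (46.0%) were near background on all 6 arrays, where 21.5% of all genes were, 11 were on 1 to 5 arrays and 16 on none. With a higher level, set 1 log2 unit above the mode of each array, 34 members were near background on all 6 arrays and 9 on none. Hoxd4 lay below that higher level on 3 arrays and Hoxd9 on 1. The 23 members read 2.01 to 3.02, and in 22 of them the highest value was that of CTL replicate 3, the array with the highest background level. Without that array every DHT animal lay above every remaining CTL animal in 28 members (56.0%), beside 38.9% of all genes, and 13 of the 28 were near background on all 6 arrays. No fold is given for members near background on all arrays.

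The 16 members above background differed in how they stood to the CTL animals. The DHT mean was higher than the mean of CTL replicates 1 and 2 in 13 of them and higher than CTL replicate 3 in 11, and the sign was the same in 12. Hoxd8, Tgif2, Hoxd9 and Six5 had much the same difference from either. The median log2 fold change of the 16 was 0.24, beside 0.15 over the 9248 genes above background on all 6 arrays.

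**Figure D4:**
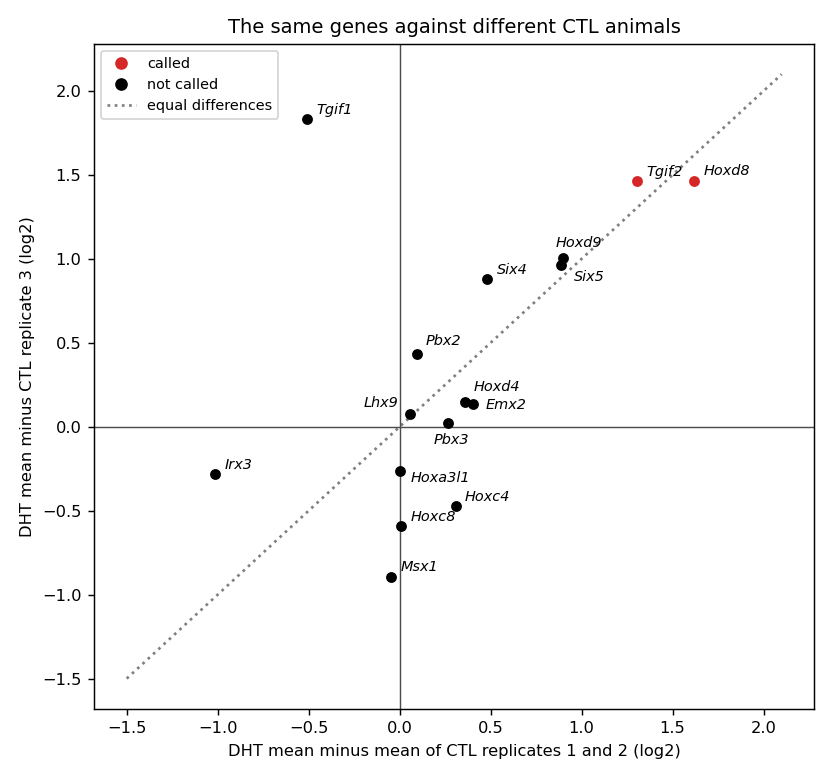
Difference of the DHT mean from CTL replicates 1 and 2 (horizontal axis, log2) and from CTL replicate 3 alone (vertical axis, log2) for the 16 homeobox genes above background on all 6 arrays; the dotted line marks equal differences. Hoxd8, Tgif2, Hoxd9 and Six5 lie near the line at 0.89 or more on both axes, Tgif1 lies at -0.51 and 1.83, and Msx1 and Hoxc8 differ from CTL replicate 3 but hardly from the other CTL animals.

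Partners and regulators of these factors were read from 8 lists with 121 genes, of which 95 were measured. Of these, 2 were called higher and none lower, where 0.907% of all genes were called higher and 0.429% lower. In 24 of the 95 (25.3%) every DHT animal lay above every CTL animal, beside 14.3% of all genes, and in 2 below. The 24 were spread over the lists, with 4 of 9 Tgif partners, 4 of 11 Polycomb genes and 4 of 9 of the trithorax list among them. Among the 5 relatives of Pbx that bind with Hox proteins, 3 were higher in every DHT than in every CTL animal, Meis1, Meis2 and Meis3, the latter pair named after their values were seen. Meis1 was called, with 8.21, 8.14 and 7.93 in DHT against 6.78, 6.80 and 7.07 in CTL animals. The median log2 fold change of those 5 was 0.73, and 0.93 without CTL replicate 3. Of 9 measured Tgif partners, Smad3, which carries TGF-beta signals to the nucleus, was called higher at 1.67 (SE 0.28, adjusted p = 0.0941 by limma). Sin3a, a scaffold of histone deacetylases, had 0.80 (adjusted p = 0.0851), under 2-fold. The median of the list was 0.38 with all animals and -0.17 without CTL replicate 3, so the direction of the list rested on that array.

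None of the 11 measured Polycomb repressors or the 9 measured trithorax proteins and H3K27 demethylases, which hold Hox genes silent or active, was called. The Polycomb genes had a median log2 fold change of 0.30, and 0.48 without CTL replicate 3. The trithorax list had 0.46, and 0.27 without that array. Pcgf2, with the smallest p of the former, had 0.57 (adjusted p = 0.269 by limma), and Kmt2a, with the smallest p of the latter, had 1.06 (adjusted p = 0.12). For the partners of the sine oculis family, Dach1 had 0.89 (adjusted p = 0.318) and none of 3 was called, and for those of LIM factors Ldb1 had 0.35 (adjusted p = 0.145) and none of 10 was called. Of 13 measured genes of retinoic acid supply and response, which regulates Hox genes, none was called and 5 were near background on all 6 arrays; Rara had 0.56 (adjusted p = 0.281). Of 35 other homeobox genes none was called either, 16 were near background on all 6 arrays, and the smallest p was that of Pou6f1 at 0.61 (adjusted p = 0.267).

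Markers of ovarian cell types moved in the same arrays. For each list the array values were taken out of the log2 scale and summed. The sum was higher in every DHT than in every CTL animal for 7 measured granulosa cell markers (12241 to 15354 against 6203 to 8473) and 5 of oocytes (68 to 96 against 38 to 55). The granulosa markers were not of 1 kind: Inhba, a subunit of activin, was called higher, while Cyp19a1, the aromatase that makes estrogen, had a log2 fold change of -2.91 with overlapping groups (adjusted p = 0.404 by limma). In the oocyte list Zp2, of the egg coat, was called higher at 1.55, Zp1 and Bmp15 were near background on all 6 arrays, and the median of the 5 was -0.0044, and 0.017 without CTL replicate 3. The sum was lower for 6 luteal markers (1002 to 3267 against 6573 to 20326), 5 of theca cells (5526 to 9203 against 9789 to 13967), 5 of endothelium (162 to 232 against 295 to 449) and 7 of macrophages (145 to 185 against 270 to 730). No endothelial marker was called, and Vwf was positive at 0.35 with overlapping groups. Of the 7 macrophage markers, 4 were lower in every DHT than in every CTL animal. Ctss alone of them was called, at -1.16 (adjusted p = 0.0994 by limma). The theca sum hid opposite members. Insl3, a theca cell hormone, was called higher at 3.11, and Cyp17a1 at 2.65 and Nr5a1 at 2.03 were positive but not called, while the steroid enzymes Cyp11a1 at -3.17 and Hsd3b1 at -0.25 lay lower in every DHT animal and were not called. The median of the 5 theca markers was 2.03, and 1.33 without CTL replicate 3. Marker genes were picked for naming after their values were seen. The 8 stroma markers gave 7389 to 9092 in DHT and 1944 to 8359 in CTL animals, the lowest being CTL replicate 3. The log2 fold change was positive in 7 of the 8, but the only stroma marker called, Thy1, was lower at -1.76 (adjusted p = 0.0581 by limma). The median of the 8 was 0.85, and 0.20 without CTL replicate 3. Smooth muscle (6 of 6 measured, 772 to 1551 against 259 to 1275), lymphocytes (4 of 6, 32 to 38 against 27 to 34), surface epithelium (7 of 8, 162 to 673 against 119 to 179) and red blood cells (3 of 4, 125 to 224 against 25 to 265) overlapped between the groups. Of 7 markers of oviduct and uterine epithelium, Foxj1, Pax8, Pax2, Foxa2 and Wnt7a were near background on all 6 arrays. The part of cell makeup in the values of Hoxd8, Tgif2 and the other members was not tested.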

How the data were processed

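Ovarian RNA of DHT and CTL rats was hybridized by the authors to Affymetrix rat genome arrays. The deposited table holds 1 log2 value for each probe set and array, which the authors obtained with GCRMA; tool versions are not given in the sources used here. Of 31099 probe sets, 57 Affymetrix controls were left out, and of the other 31042, 20826 carry 1 gene symbol, 436 several and 9780 none here. The 3 single-animal arrays of DHT were compared with those of CTL in limma (version 3.58.1, lmFit and eBayes; R version 4.3.3), and p-values were adjusted by the Benjamini-Hochberg method across all 31042. Arrays of pooled RNA, made from the same animals, did not enter the comparison. Named one by one are members called, members not near background on at least 3 arrays with an unadjusted p of 0.05 or less or a 2-fold change, the brightest member of each name stem, and of each related list those called and the one with the smallest p. The members and lists were chosen with earlier results of these data known. Other members are named where a value rests on 1 array and were picked after their values were seen. Alternatives changed the normalization, fit, background level and arrays used. The fit was tested on simulated data with independent normal noise and equal spread in both groups. No simulated array stood apart as CTL replicate 3 does, so that test does not cover this feature of the data.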

Additional observations from a re-analysis of the deposited data

Results flagged for a closer look

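The arrays of pooled RNA, which the comparison of single animals does not use, differed by 2-fold or more in 2 of the 50 members. Hoxd8 was 1.44 higher and Tgif2 was 1.05 higher on the array of pooled DHT RNA than on that of pooled CTL RNA, on the log2 scale. These arrays hold RNA of the same animals and are no independent replicates, there is 1 per group and so no test, and 7.66% of all genes differed by 2-fold or more between them.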

How the results depend on the processing

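The count of members called, 2, was 0 after quantile normalization, 0 with a mean-variance trend and 0 with the replicate number as a block, where limma called 0 of all probe sets (3817 at an unadjusted p of 0.05 or less), Hoxd8 had an adjusted p of 0.17 and Tgif2 of 0.193. The sample labels do not say whether the replicate numbers pair the animals. Same-numbered arrays deviated from their group means with r of -0.074, 0.44 and 0.34 across probe sets. For arrays with different numbers r was -0.53 to 0.48. With 3 animals a group, these values cannot decide whether the animals are paired. The count was 4 with the gap between Gapdh 3' and 5' probe sets as a covariate (Hoxd8, Tgif2, Tgif1 and Pbx4). Of the CTL arrays only replicate 3 had a gap within the range of the DHT arrays. The DHT difference in that fit therefore rests mainly on this 1 CTL animal. The count was 1 at an adjusted p of 0.05 or less (Hoxd8), 6 at an unadjusted p of 0.05 or less, and 0 to 2 when each array was left out in turn. Over all probe sets 320 were called, against 0 without any DHT array, 181, 92 and 1622 without CTL replicates 1, 2 and 3, 176 after quantile normalization, 61 with the trend, 966 with the pooled arrays as replicate 4, 1874 with array quality weights and 3746 with the covariate. The 6 members without overlap became 11 after median scaling, where 22.9% of all genes did not overlap, and 7 to 29 when single arrays were left out, the 29 without CTL replicate 3. Hoxd8 ranged from 1.42 to 1.62 and Tgif2 from 1.05 to 1.48 (log2) over 18 settings each. Among members not called, the sign turned with array quality weights for Hoxa3l1 (0.036), Hoxb2 (-0.019), Lhx9 (-0.12) and Tgif1 (-0.52), after quantile normalization for Hoxc4 (-0.041) and with the covariate for Hoxc4 (-0.47). Leaving out single arrays gave -0.15 to 0.022 for Hoxa3l1, -0.050 to 0.074 for Hoxb2, -0.093 to 0.31 for Hoxc4, -0.082 to 0.22 for Lhx9 and -0.51 to 0.71 for Tgif1. The cause of these changes was not tested. Of 270 values of the 15 named members, 21 turned their sign, all in members not called; the call was lost in 14 and gained in 1. Signal near background limits what can be said of 34 members.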
